A study of Homo sapiens with 16 samples.

Results

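NF-κB is a small family of transcription factors held in check by a set of inhibitor proteins, and the 10 genes described here encode its 5 subunits (NFKB1, NFKB2, REL, RELA and RELB), 3 cytoplasmic IκB inhibitors (NFKBIA, NFKBIB and NFKBIE), the nuclear IκB protein IκBζ (NFKBIZ) and the ubiquitin-editing enzyme A20 (TNFAIP3). The genes were chosen by name, and each matched exactly 1 of the 62700 Ensembl genes in the deposited table of normalized counts. They were measured by RNA-seq in OCI-AML3, an established human acute myeloid leukemia (AML) cell line. All groups are this 1 line, so they speak for no other AML. The 16 libraries came from untreated cells (4 libraries), cells given all-trans retinoic acid (ATRA, 3 libraries), cells given Am80 (tamibarotene, 3 libraries), and cells given ATRA or Am80 together with GSK-LSD1 and MB3 (3 libraries each). ATRA activates all retinoic acid receptors, Am80 prefers RARA, GSK-LSD1 blocks the histone demethylase LSD1 and MB3 blocks the histone acetyltransferase GCN5. The treatments lasted 3 h, and the concentrations the methods give for cell lines were 0.1 µM for ATRA, Am80 and GSK-LSD1 and 100 µM for MB3. The time of the untreated cells is not given, and none of the groups is labelled as a solvent control. In comparisons with untreated cells, effects of a drug therefore cannot be told apart from those of solvent, handling or time in culture. No library came from cells given GSK-LSD1 and MB3 without a retinoid, so their effect is seen only on top of a retinoid, and the effects of GSK-LSD1 and of MB3 cannot be told apart. The comparisons ask how the NF-κB genes differ between retinoid-treated and untreated cells, between cells with and without the epigenetic inhibitors, and between the 2 retinoids.

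In resting cells NF-κB dimers are kept in the cytoplasm by IκB proteins, and kinases of the IKK complex mark the IκB proteins for destruction so that the dimers reach the nucleus. RELA, REL and RELB carry transactivation domains, whereas NFKB1 and NFKB2 are made as precursors that are processed to DNA-binding subunits. NFKBIA and TNFAIP3 are themselves classical targets of NF-κB and close negative feedback loops, IκBζ acts in the nucleus on a subset of inflammatory genes, and in myeloid cells the pathway drives cytokine and survival genes. These mRNA data hold no measure of protein level, phosphorylation or nuclear location.

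The promoters of these genes are shown first because several NF-κB genes are known to be controlled by NF-κB itself. RefSeq promoter windows (250 bases before to 50 after an annotated start, GRCh38.p14) were given for 8 of the 10 genes, with 14 windows in all, and not for RELB and NFKBIE. At least 1 match to the κB consensus on either strand was found in 7 of the 8 genes, compared with 13.3% of 27305 genes and 11.3% of 35116 windows. A narrower form, GGGA and TTCC with any 2 bases between them, whose matches all lie within matches of the consensus, was found in the same 7 genes, compared with 1.97% of genes and 1.61% of windows. RELA had no match in its windows. In the GENCODE annotation of GRCh38, RELA lies at chr11:65653596-65663094 (minus strand), RELB at chr19:45001430-45038198 (plus strand) and NFKBIE at chr6:44258166-44265788 (minus strand). Each stretch below is 30 bases long, reads 5′ to 3′ on the strand of its gene, and has the 10 bases that match the narrower form on either strand in capitals.
NFKB1, chr4:102501300-102501329, plus strand: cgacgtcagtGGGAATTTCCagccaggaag
NFKB2, chr10:102395674-102395703, plus strand: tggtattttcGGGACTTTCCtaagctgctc
REL, chr2:60881517-60881546, plus strand: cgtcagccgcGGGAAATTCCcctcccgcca
NFKBIA, chr14:35404811-35404840, minus strand: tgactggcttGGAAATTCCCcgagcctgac
NFKBIB, chr19:38899931-38899960, plus strand: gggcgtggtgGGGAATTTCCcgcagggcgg
NFKBIZ, chr3:101827757-101827786, plus strand: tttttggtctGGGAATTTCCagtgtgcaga
TNFAIP3, chr6:137867182-137867211, plus strand: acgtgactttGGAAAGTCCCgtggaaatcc
The match began 21 bases before the annotated start in NFKB2, 28 in NFKBIB, 47 in REL, 49 in NFKB1, 67 in TNFAIP3, 81 in NFKBIA and 223 in NFKBIZ. In NFKBIA and TNFAIP3 it read on the other strand. The retinoic acid response element searched as a direct repeat with 5 bases between its copies was in 0.106% of all genes, and with 2 bases between them in 0.0513%, and neither was in a window of these genes. A match describes letters in a window, and no binding was measured here.

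**Figure D1:**
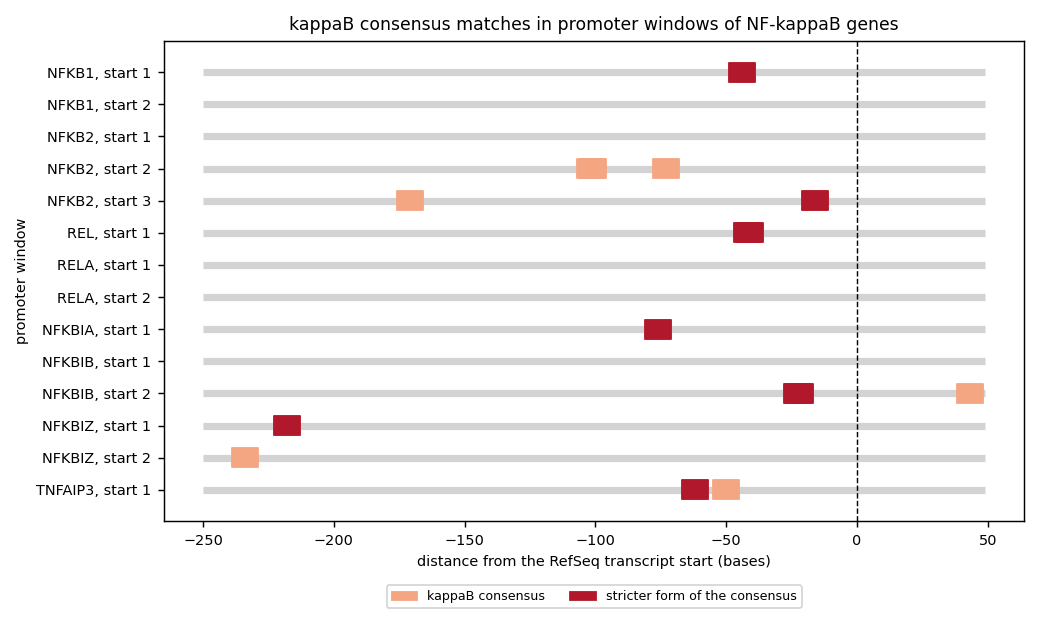
Positions of κB consensus matches (light) and of the narrower form (dark) in the 14 RefSeq promoter windows of 8 genes, by distance in bases from the annotated start (dashed line). In 6 of the 7 genes with the narrower form its match lies within 81 bases before a start, and in NFKBIZ it begins 223 bases before one.

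The libraries held 11963898 to 33789718 reads counted on genes, and all 10 genes were among the 14643 that passed the filter on low values, a mean over the libraries of 10 or more. The smallest read count of any of the 10 genes in a library was 141 (RELB). Untreated replicate 4 and Am80 replicate 2 stood apart from the other libraries of their groups: the 5 replicate pairs with either library had chi-square values per degree of freedom between 14.3 and 22.7, and the other 13 pairs between 2.55 and 5.59. Calls that changed without these 2 libraries are given beside the results. The labels were checked with DHRS3 and RARB, both induced by retinoids, whose log2 fold changes against untreated cells were 6.41 and 4.43 with ATRA and 6.46 and 4.68 with Am80. All 7 myeloid markers passed the filter, and their summed level was 22347 to 27479 normalized counts in untreated cells and 19574 to 23539 in the treated groups. None of 4 T cell, 3 erythroid and 3 epithelial markers passed. The labels do not say whether replicates were separate cultures, so p-values measure the spread between these libraries, which may be technical. In bulk RNA, fewer expressing cells and less RNA per cell cannot be told apart.

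Per kilobase of annotated exon, NFKBIA led in untreated cells with 343 ± 47.7 normalized counts per kb (SD, n = 4), before NFKBIE with 275 ± 45.03, NFKB1 with 269.7 ± 11.2, RELA with 245 ± 12.9 and NFKBIB with 157 ± 25.6. The lower levels per kb were 74.9 ± 8.25 for NFKBIZ, 68.0 ± 2.90 for TNFAIP3, 66.7 ± 12.1 for RELB, 53.1 ± 3.73 for NFKB2 and 26.6 ± 5.81 for REL. The SD ranges overlapped between NFKBIA and NFKBIE and between RELB and NFKB2, but the first of each pair was higher in all 4 untreated libraries. They also overlapped between NFKBIE and both NFKB1 and RELA, and among NFKBIZ, TNFAIP3 and RELB. The order within these latter sets changed between libraries, so those neighbours are not ordered by these data. REL was the lowest of all in untreated cells over its exon length in the annotation (13170 bases), the longest of the group. Of these bases, 5702 are shared with an unnamed gene on the same strand, described below. If reads on them were not counted, the per-kb level and the share of REL are too low, and its place may differ. As a share of the summed per-kb level of the 5 subunits, REL went from 4.02% ± 0.824 in untreated cells to 7.79% ± 0.783 with ATRA and 7.21% ± 1.42 with Am80, and to 11.5% ± 0.477 and 9.91% ± 0.741 when GSK-LSD1 and MB3 were added (SD, n = 3 in treated groups). The share of NFKB1 was 40.8% ± 1.37 in untreated cells and 33.5% ± 0.0994 and 30.2% ± 1.37 in the ATRA and Am80 combinations, and that of RELA stayed between 36.2% and 38.1% in all 5 groups. RELA and NFKB1 thus made up the bulk of subunit mRNA in every group.

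**Figure D2:**
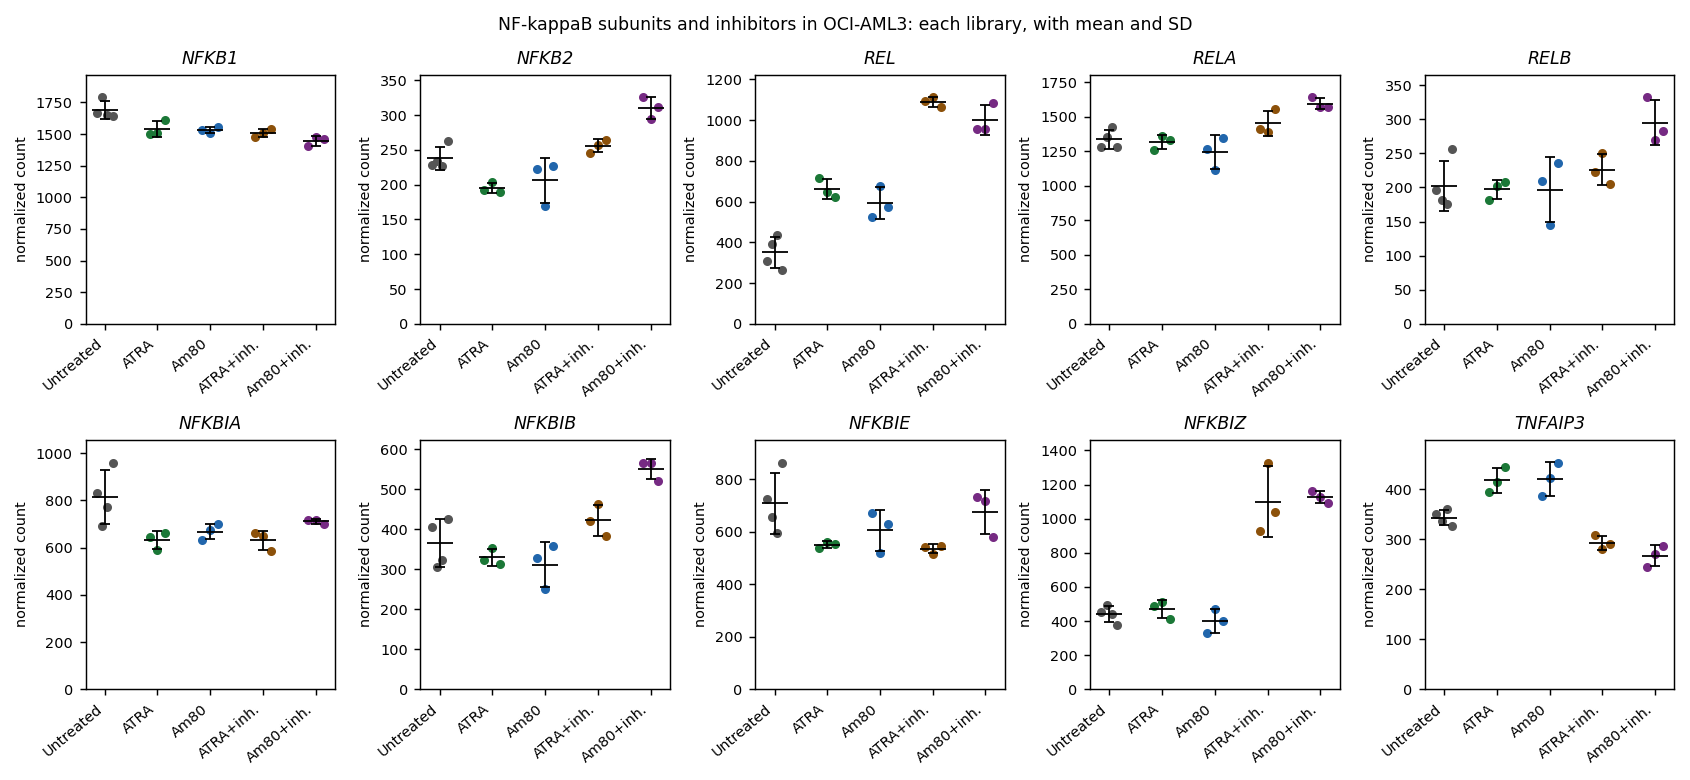
Normalized counts of the 10 genes in each library (points), with the group mean and SD (bars), in untreated cells and after ATRA or Am80 with or without GSK-LSD1 and MB3 (inh.). REL steps up from untreated to retinoid to combination libraries, NFKBIZ is high only in the 6 combination libraries, and TNFAIP3 is highest with a retinoid alone and lowest in the combinations.

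REL, which encodes c-Rel, rose with either retinoid and rose again when the epigenetic inhibitors were added. Its normalized counts were 311, 389.8, 436 and 266 in untreated cells, 717, 645 and 622 with ATRA, and 525, 677 and 572 with Am80. They were 1092, 1112 and 1064 with ATRA and both inhibitors and 958, 954 and 1085 with Am80 and both inhibitors. Every retinoid library lay above every untreated library, and every combination library lay above every retinoid library. Against untreated cells, the log2 fold change was 0.94 ± 0.12 (SE; adjusted p = 6.25e-06, limma) with ATRA and 0.77 ± 0.12 (adjusted p = 6.59e-05, limma) with Am80. In the combinations it reached 1.66 ± 0.12 with ATRA (adjusted p = 6.45e-10, limma) and 1.53 ± 0.12 with Am80 (adjusted p = 2.07e-09, limma). The step on adding the inhibitors was 0.72 (95% confidence interval 0.44 to 0.999) on ATRA and 0.76 (0.48 to 1.04) on Am80, with adjusted p-values of 0.000174 and 0.000125 (limma). REL shares 5702 exon bases with an unnamed gene on the same strand (ENSG00000267520), which had 0 reads in all libraries, and how reads on those bases were counted is uncertain.

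Of the other subunits, RELA, the most studied activating subunit, and NFKB1, the precursor of its usual partner, moved less than REL. NFKB1 normalized counts ran from 1639 to 1791 in untreated cells, from 1504 to 1611 with ATRA and from 1508 to 1558 with Am80, and from 1478 to 1544 and from 1404 to 1478 in the ATRA and Am80 combinations. Its 4 untreated libraries lay above all 12 treated ones, but the differences were small. NFKB1 fell by 0.16 on the log2 scale in the ATRA combination (adjusted p = 0.0200, limma) and by 0.22 in the Am80 combination (adjusted p = 0.00251), while the log2 values with ATRA (-0.13) and Am80 (-0.14) alone missed the threshold (adjusted p = 0.0992 and 0.0717, limma). Without untreated replicate 4 and Am80 replicate 2 the value with ATRA passed it (-0.15, adjusted p = 0.0413, limma). With the trend in GC content removed, as described below, both passed it, at -0.20 with ATRA and -0.19 with Am80 (adjusted p = 0.00201 and 0.00315, limma). Under scaling to total reads the value with Am80 alone passed it (-0.20, adjusted p = 0.0136, limma) and that with ATRA alone did not (-0.13, adjusted p = 0.111, limma). The call in the ATRA combination was lost without untreated replicate 2, without replicate 1 of that combination or with no filter on low values, with adjusted p-values up to 0.0705. RELA had 1279.6 to 1429.9 normalized counts in untreated cells and 1568 to 1642 with Am80 and both inhibitors, groups that did not overlap. RELA rose by 0.25 ± 0.07 there (adjusted p = 0.00459, limma), a call lost under quantile normalization and under scaling to total reads (0.07, adjusted p = 0.428, limma), and the log2 fold change with ATRA and both inhibitors was 0.12 (interval -0.03 to 0.27). When the inhibitors were added to Am80, RELA rose by 0.36 ± 0.08 (adjusted p = 0.000730, limma), and the groups did not overlap. That call held under all 28 alternatives that keep the threshold, with 0.28 to 0.42 when 1 library was left out.

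NFKB2 and RELB, the subunits of the non-canonical pathway, were raised by the inhibitors on Am80. NFKB2 normalized counts were 229, 234, 227 and 263 in untreated cells, 193, 204 and 189 with ATRA, 223, 169 and 227 with Am80, 246, 256 and 265 in the ATRA combination, and 326, 294 and 312 in the Am80 combination. The Am80 combination lay above every other library, and ATRA alone lay below all untreated libraries. NFKB2 rose by 0.39 ± 0.11 on the log2 scale when the inhibitors were added to ATRA (adjusted p = 0.00530, limma) and by 0.60 ± 0.11 when they were added to Am80 (adjusted p = 0.000158, limma). Scaling to total reads ended the first of these calls (0.24, adjusted p = 0.0616, limma) and the rise of 0.38 in the Am80 combination against untreated cells (0.20, adjusted p = 0.0881, limma). Its fall of -0.28 ± 0.10 with ATRA alone (adjusted p = 0.0447, limma) was the least stable of all calls, since it was lost in 12 of the 16 fits that left out 1 library (all but those without untreated replicate 3 or an Am80 library), with adjusted p-values up to 0.131 over all alternatives. RELB normalized counts were 197, 181, 176 and 256 in untreated cells, 181, 203 and 208 with ATRA, and 210, 144 and 236 with Am80. They were 223, 249.97 and 206 in the ATRA combination, and 332, 269 and 283 in the Am80 combination. The Am80 combination lay above all untreated libraries, while the ATRA combination overlapped with them. RELB rose by 0.60 ± 0.16 when the inhibitors were added to Am80 (adjusted p = 0.00468, limma), and its log2 value when they were added to ATRA was 0.19 (interval -0.14 to 0.52). Without Am80 replicate 2 the rises on Am80 were smaller but still called, at 0.40 for RELB and 0.46 for NFKB2.

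The cytoplasmic IκB genes did not move as a block. NFKBIA, encoding the IκBα that is rapidly resynthesized after NF-κB activation, had 833, 693, 771 and 961 normalized counts in untreated cells, 643, 589 and 663 with ATRA, and 633, 673 and 699 with Am80. All ATRA libraries lay below all untreated libraries, and 1 Am80 library overlapped with them. NFKBIA fell by 0.36 ± 0.09 on the log2 scale with ATRA (adjusted p = 0.00482, limma) and by 0.28 ± 0.09 with Am80 (adjusted p = 0.0238, limma). The Am80 call was lost without untreated replicate 1, without untreated replicate 4, without Am80 replicate 1, without untreated replicate 4 and Am80 replicate 2 together (-0.20, adjusted p = 0.0621, limma) or when untreated and Am80 libraries were fitted alone, with adjusted p-values up to 0.104 over all alternatives. Adding the inhibitors to ATRA left NFKBIA with a log2 difference of -0.00 (interval -0.20 to 0.20), and adding them to Am80 gave 0.09 (interval -0.11 to 0.29). NFKBIE, encoding IκBε, ranged from 593 to 863 in untreated cells, from 536 to 561 with ATRA and from 515 to 547 with ATRA and both inhibitors. It fell by 0.35 ± 0.11 with ATRA (adjusted p = 0.0248, limma) and by 0.39 ± 0.11 in the ATRA combination (adjusted p = 0.00483, limma), whereas the log2 values were -0.22 with Am80 and -0.06 in the Am80 combination, neither past the threshold (adjusted p = 0.147 and 0.657, limma). The call with ATRA was lost without untreated replicate 1 or 4 or without any of the 3 ATRA libraries, with adjusted p-values up to 0.0879 (limma).

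NFKBIB, encoding IκBβ, was called higher when the inhibitors were added, which of the other cytoplasmic IκB genes held for NFKBIE alone and only with the GC trend removed (0.34 on ATRA and 0.28 on Am80). Its normalized counts were 404, 306, 323 and 427 in untreated cells, 324, 352 and 313 with ATRA, and 329, 249.6 and 357 with Am80. With both inhibitors added they were 422, 462 and 383 on ATRA and 567, 565 and 521 on Am80. The Am80 combination stood above all other libraries, and the ATRA combination overlapped with the untreated libraries. The inhibitors raised NFKBIB by 0.35 ± 0.13 on ATRA (adjusted p = 0.0298, limma) and by 0.83 ± 0.13 on Am80 (adjusted p = 3.79e-05, limma). Without Am80 replicate 2 the rise on Am80 was 0.68, still called. The call on ATRA was lost without replicate 1 or 3 of ATRA, without replicate 1 or 2 of its combination, with no filter on low values and under scaling to total reads (0.21, adjusted p = 0.183, limma). NFKBIB shares 40 exon bases with SIRT2 on the opposite strand (mean 464 normalized counts), and the strand setting of the counting is not given in the sources used here.

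NFKBIZ rose more than any other of the 10 genes when the epigenetic inhibitors were added, and with all libraries it was called with neither retinoid alone. Its normalized counts were 453, 494, 443 and 377 in untreated cells, 489.8, 509.8 and 409.8 with ATRA, and 329.6, 469 and 401 with Am80. They were 929, 1329 and 1041 with ATRA and both inhibitors and 1161, 1129.8 and 1090.5 with Am80 and both inhibitors. The libraries with a retinoid alone overlapped with the untreated ones, and all 6 combination libraries lay far above the other 10. The log2 values against untreated cells were 0.09 (interval -0.17 to 0.35) with ATRA and -0.15 (interval -0.41 to 0.10) with Am80. Without untreated replicate 4 and Am80 replicate 2, NFKBIZ was called lower with Am80 (-0.35, adjusted p = 0.0131, limma). The rise on adding the inhibitors was 1.22 ± 0.13 on ATRA (adjusted p = 3.86e-07, limma) and 1.51 ± 0.13 on Am80 (adjusted p = 2.14e-08, limma). Among the summed per-kb levels of NFKBIA, NFKBIB, NFKBIE and NFKBIZ, the share of NFKBIZ was 8.99% ± 1.93 in untreated cells, 22.1% ± 3.03 in the ATRA combination and 19.3% ± 0.541 in the Am80 combination, while that of NFKBIA was 40.4% ± 1.67, 31.6% ± 1.71 and 30.3% ± 1.25.

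TNFAIP3, whose product A20 removes and attaches ubiquitin chains on signalling proteins and so damps NF-κB activation, rose with each retinoid and fell below the untreated level in both combinations. Its normalized counts were 350.0, 336, 360.0 and 327 in untreated cells, 394, 415 and 444 with ATRA, and 386, 423 and 453 with Am80. They were 308, 280.4 and 289.8 in the ATRA combination and 244, 271 and 286 in the Am80 combination. The retinoid, untreated and combination libraries formed 3 ranges that did not overlap. TNFAIP3 rose by 0.28 ± 0.08 with ATRA (adjusted p = 0.0158, limma) and by 0.29 ± 0.08 with Am80 (adjusted p = 0.0112, limma). It fell by 0.51 ± 0.09 on the log2 scale when the inhibitors were added to ATRA (adjusted p = 9.17e-05, limma) and by 0.65 ± 0.09 when they were added to Am80 (adjusted p = 7.28e-06, limma). Against untreated cells the combinations gave -0.23 with ATRA (adjusted p = 0.0220, limma) and -0.36 with Am80 (adjusted p = 0.000941, limma). The calls with ATRA and with Am80 were each lost without replicate 3 of that group, with adjusted p-values of 0.0903 and 0.0620 (limma), and the Am80 call also under scaling to total reads (adjusted p = 0.0530, limma). The call for the ATRA combination against untreated cells was lost without untreated replicate 3, without replicate 2 or 3 of that combination, by DESeq2 and under quantile normalization. TNFAIP3 shares 95 exon bases with WAKMAR2 on the opposite strand (mean 23.1 normalized counts).

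A gene was called when its adjusted p-value (limma, Benjamini-Hochberg over 14643 genes) was under 0.05, with no limit on the fold change. ATRA against untreated cells called 5 of the 10 genes, 2 higher (REL and TNFAIP3) and 3 lower (NFKB2, NFKBIA and NFKBIE), compared with 24.6% of all tested genes, 12.5% higher and 12.1% lower. Am80 against untreated cells called 3, REL and TNFAIP3 higher and NFKBIA lower, compared with 28.8% of all genes, 15.4% higher and 13.4% lower. The count with Am80 was therefore close to the share over all tested genes. The ATRA combination against untreated cells called 6 (REL and NFKBIZ higher, NFKB1, NFKBIA, NFKBIE and TNFAIP3 lower), compared with 60.2% of all genes, 30.2% higher and 30.0% lower. The Am80 combination called 8 (NFKB2, REL, RELA, RELB, NFKBIB and NFKBIZ higher, NFKB1 and TNFAIP3 lower), compared with 54.7% of all genes, 28.0% higher and 26.6% lower.

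The inhibitors added to ATRA called 5 of the 10, namely NFKB2, REL, NFKBIB and NFKBIZ higher and TNFAIP3 lower, compared with 49.3% of all genes, 24.9% higher and 24.4% lower. Added to Am80 they called 7, with RELA and RELB joining the same 4 higher genes and TNFAIP3 the only one lower, compared with 39.5% of all genes, 19.9% higher and 19.5% lower. Without untreated replicate 4 and Am80 replicate 2, RELB (0.29) and NFKBIB (0.30) were also called higher in the ATRA combination against untreated cells, which made 8 of the 10 compared with 61.9% of all genes, and RELA (0.14) was also called when the inhibitors were added to ATRA, which made 6 compared with 57.9% of all genes. The median log2 fold change of the 10 genes was 0.17 on ATRA and 0.48 on Am80, compared with -0.02 and -0.01 over all genes tested. Because these treatments changed so much of the transcriptome, the number of NF-κB genes called is read against those percentages and not against 0. Scaling to total reads instead of the deposited size factors shifted the median of all genes to -0.15 and -0.19 in the ATRA and Am80 combinations against untreated cells and to -0.16 and -0.13 when the inhibitors were added, and no call of the 10 genes changed direction under that scaling. The balance of the calls did change. The Am80 combination against untreated cells then called 4 higher and 4 lower, beside 18% and 41.2% of all genes, with NFKBIA and NFKBIE new among the lower. The inhibitors called 2 higher and 2 lower on ATRA, beside 15.2% and 35.8% of all genes. On Am80 they called 6 higher and 2 lower, beside 12.5% and 30.3%, and NFKB1 was newly lower on both retinoids. Of the 34 calls among the 90 tests (10 genes in 9 comparisons), 22 held under all 28 alternatives that keep the significance threshold, 12 were lost under at least 1, and 0 changed direction. Among the tests not called, 20 became called in the same direction under at least 1 of these alternatives. The calls of REL and NFKBIZ, and those of TNFAIP3 on adding the inhibitors, were among the 22.

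**Figure D3:**
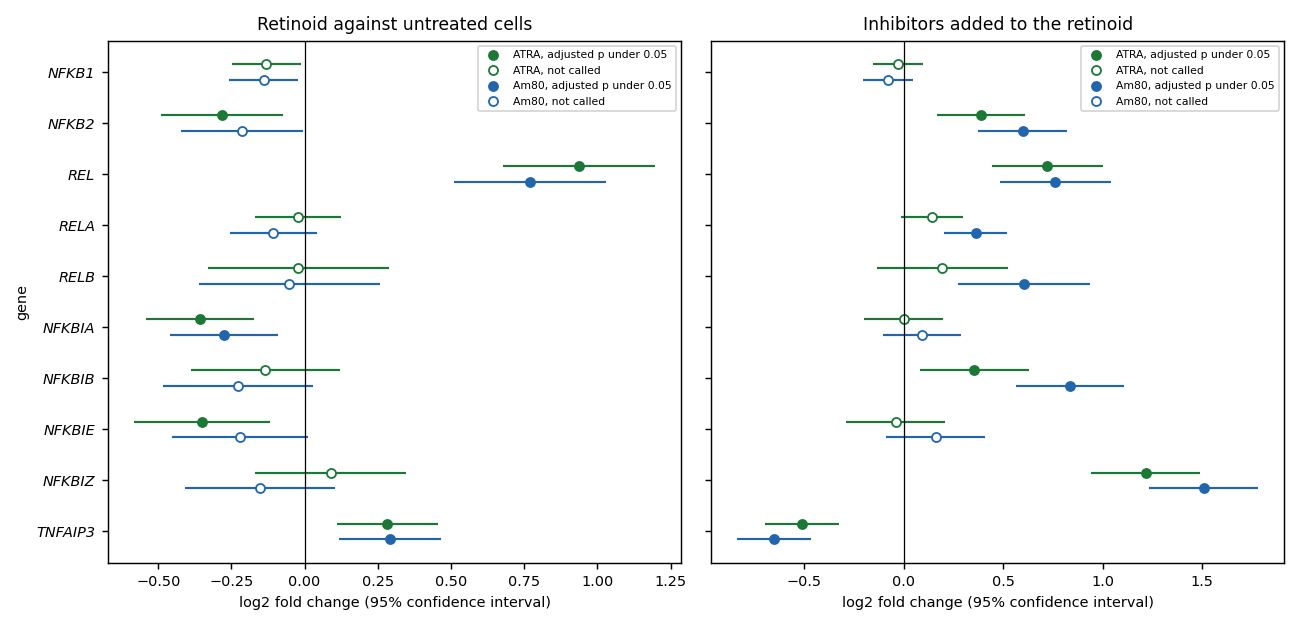
Log2 fold changes of the 10 genes with 95% confidence intervals for each retinoid against untreated cells (left) and for GSK-LSD1 and MB3 added to each retinoid (right), with filled points for adjusted p-values under 0.05 (limma). REL is to the right of 0 in both panels, NFKBIZ only in the right one, and TNFAIP3 lies to the right of 0 with the retinoids and to the left when the inhibitors are added.

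ATRA and Am80 differ in structure, with an aromatic amide in Am80 in place of the polyene chain of ATRA, and were compared at the same concentration and time. No difference between them was called in any of the 10 genes. Without the inhibitors limma called 0 of the 10 genes, and unadjusted p-values under 0.05 numbered 0, compared with 0.239% of all genes called, and the groups overlapped for all 10, whereas they did not for 20.2% of all genes tested. By edgeR and DESeq2 the number called was also 0. The log2 differences (Am80 minus ATRA) ran from -0.24 for NFKBIZ (interval -0.52 to 0.03) to 0.13 for NFKBIE (interval -0.12 to 0.38), and that of REL was -0.17 (interval -0.45 to 0.11). These intervals leave room for differences of that size, so equal action was not shown.

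With the inhibitors present, Am80 and ATRA differed in the same direction for several genes without passing the threshold. Normalized counts did not overlap between the groups for 7 of the 10 genes, although 0 of the 10 were called (limma, smallest adjusted p = 0.171; also 0 by edgeR and DESeq2), 4 had an unadjusted p-value under 0.05 and 0% of all genes were called. Over all genes tested, the groups did not overlap for 30.2%, and 18.1% had an unadjusted p-value under 0.05. The Am80 combination was above the ATRA combination by 0.39 (interval 0.11 to 0.66) for NFKBIB, 0.38 (0.05 to 0.71) for RELB, 0.33 (0.08 to 0.58) for NFKBIE and 0.28 (0.05 to 0.50) for NFKB2. A fit of only these 6 libraries called these 4 genes, with adjusted p-values (limma) of 0.00301 for NFKBIB, 0.0168 for RELB, 0.00966 for NFKBIE and 0.0452 for NFKB2, while 13.5% of all genes were called. The fit without untreated replicate 4 and Am80 replicate 2 called the same 4 and 15.7% of all genes. For the 3 genes with the largest changes, REL and NFKBIZ gave -0.13 (interval -0.40 to 0.15) and 0.05 (interval -0.22 to 0.33), and NFKBIB is given above. The interaction, that is the difference between the effects of the inhibitors on Am80 and on ATRA, called 0 of the 10 genes and 0% of all genes by limma, with 1 unadjusted p-value under 0.05 (NFKBIB, 0.48, interval 0.09 to 0.87, adjusted p = 0.252) and 0 calls by edgeR or DESeq2. The rises of RELA and RELB called on Am80 and not on ATRA were thus not shown to differ between the retinoids.

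**Figure D4:**
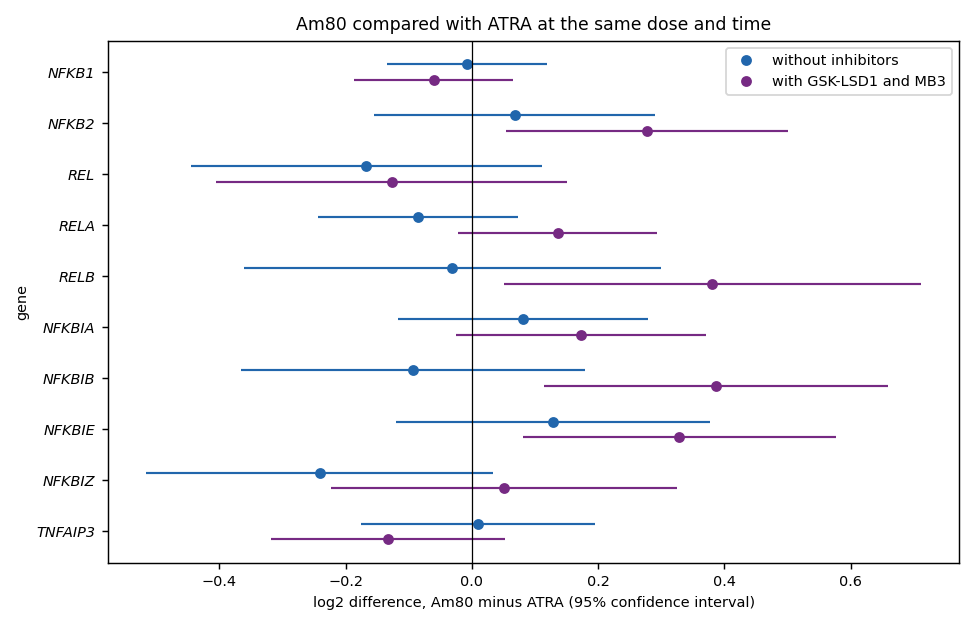
Log2 difference between Am80 and ATRA for the 10 genes, with 95% confidence intervals, without (blue) and with (purple) GSK-LSD1 and MB3. All 10 intervals without the inhibitors include 0, and with them those of NFKB2, RELB, NFKBIB and NFKBIE lie above 0, none with an adjusted p-value (limma) under 0.05.

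These differences moved with the GC content of the transcripts. GC content of the longest transcript was 38.7% for REL, 46.2% for NFKBIZ, 49.5% for TNFAIP3, 50.1% for NFKB1, 53.1% for NFKBIA and 57.1% for RELA, and 60.5% for NFKBIB, 61.0% for NFKBIE, 62.4% for NFKB2 and 65.4% for RELB. The 4 genes higher in the Am80 than in the ATRA combination are the 4 with the highest GC content, and over 14293 genes the log2 difference of those groups had a Pearson r of 0.451 with GC content (across genes, which share the libraries). The median log2 difference was -0.10 among the 25% of genes with the lowest GC content and 0.18 among the 25% with the highest. For the inhibitors added to ATRA, r was -0.482, with medians of 0.28 and -0.36, and for the inhibitors added to Am80 it was -0.164, with medians of 0.08 and -0.11. With the GC trend removed from each library, the 4 differences became 0.22 for NFKBIB, 0.15 for RELB, 0.16 for NFKBIE and 0.09 for NFKB2, none called by limma (adjusted p = 0.321, 0.532, 0.437 and 0.649). Whether the GC trend is technical was not tested.

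The same step left the main changes called, although the rise of REL on ATRA was smaller. With the trend removed, the inhibitors raised REL by 0.44 on ATRA and 0.67 on Am80 and NFKBIZ by 1.15 and 1.52, and TNFAIP3 gave -0.47 and -0.61, all called (limma; adjusted p from 7.11e-09 to 0.00281). The REL values were 0.72 and 0.76 before. In the ATRA combination against untreated cells REL went from 1.66 to 1.34. RELA, RELB and NFKBIE were then also called on ATRA, at 0.40, 0.71 and 0.34 (adjusted p = 2.41e-05, 2.25e-05 and 0.00476, limma), which made 8 of the 10 genes, compared with 42.4% of all genes. The rises on ATRA became 0.81 for NFKB2 and 0.72 for NFKBIB, compared with 0.39 and 0.35 before. On Am80, NFKBIE was added to the calls (0.28, adjusted p = 0.0137, limma), which also made 8, compared with 45.2% of all genes. For the ATRA combination against untreated cells, NFKB2, RELA, RELB and NFKBIB became called higher at 0.49, 0.32, 0.68 and 0.54, and the fall of NFKBIE was lost (-0.05, adjusted p = 0.595, limma).

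**Figure D5:**
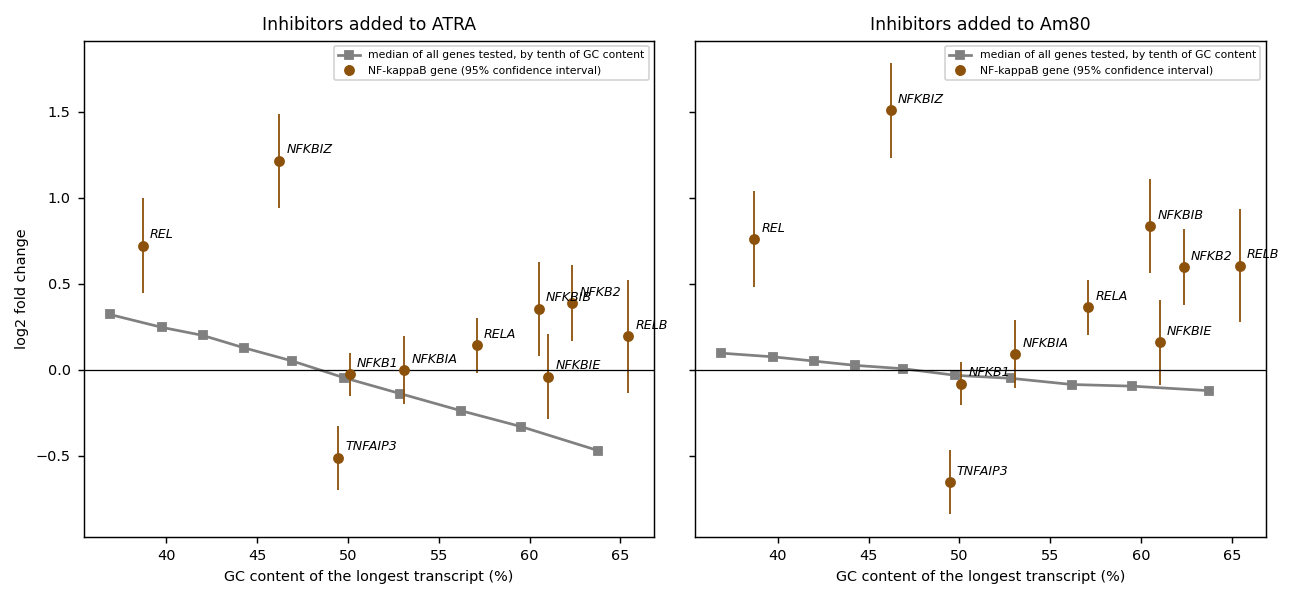
Log2 fold change on adding GSK-LSD1 and MB3 to ATRA (left) or Am80 (right) against the GC content of the longest transcript, for the 10 genes (brown, 95% confidence intervals) and as medians of all genes in 10 bins of GC content (grey). The grey line falls with GC content more steeply on ATRA than on Am80, and the GC-rich genes NFKB2, RELB and NFKBIB lie above it in both panels.

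Around the 10 genes, the kinases that activate NF-κB were described by a list of 16 IKK subunits and kinases acting on them, all of which were tested. Adding the inhibitors called 8 higher and 3 lower on ATRA and 7 higher and 2 lower on Am80, with median log2 fold changes of 0.27 and 0.10, where 24.9% and 24.4% of all genes were higher and lower on ATRA and 19.9% and 19.5% on Am80. Under scaling to total reads the counts were 5 higher and 4 lower on ATRA and 4 higher and 3 lower on Am80 (median -0.02). Over all genes that scaling called 15.2% higher and 35.8% lower on ATRA and 12.5% and 30.3% on Am80. MAP3K14, the NIK kinase of the non-canonical pathway, rose from 71.7 ± 12.2 to 189.7 ± 19.3 normalized counts (SD, n = 3) on ATRA and from 76.3 ± 8.43 to 232 ± 40.4 on Am80 (log2 1.40 and 1.58). MAP3K7 (TAK1, which phosphorylates IKK) rose by 0.66 and 0.58 and the IKK-related kinase TBK1 by 0.62 and 0.39, whereas the IKK-related kinase IKBKE gave -0.83 and -0.67 and the TAK1 partner TAB1 gave -0.80 and -0.60. With the retinoids alone 4 were higher and 0 lower with ATRA, and 5 higher and 2 lower with Am80. Over all genes 12.5% were higher and 12.1% lower with ATRA, and 15.4% and 13.4% with Am80. The named risers were MAP3K8 (0.44 and 0.61), IRAK4 (0.35 and 0.40) and RIPK1 (0.35 and 0.36), a group of kinases downstream of Toll-like and TNF receptors.

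Of 19 adaptors and ubiquitin ligases, 17 were tested. With ATRA 1 was higher and 2 lower, and with Am80 2 were higher and 2 lower. These counts were near or below the shares of all genes, 12.5% and 12.1% with ATRA and 15.4% and 13.4% with Am80. The ubiquitin ligase BIRC2 rose by 0.31 and 0.49, and TRAF5 fell from 52.5 ± 4.57 normalized counts in untreated cells to 28.7 ± 3.91 with ATRA and 30.0 ± 8.12 with Am80. Adding the inhibitors called 7 higher and 4 lower on ATRA and 8 higher and 2 lower on Am80. The shares of all genes were 24.9% and 24.4% on ATRA and 19.9% and 19.5% on Am80. Scaling to total reads gave 7 higher and 8 lower on ATRA (median -0.06) and 7 higher and 4 lower on Am80. Over all genes that scaling called 15.2% higher and 35.8% lower on ATRA and 12.5% and 30.3% on Am80. Removal of the GC trend gave 10 higher and 3 lower on ATRA and 8 higher and 1 lower on Am80. The shares of all genes were then 23.3% and 19.1% on ATRA and 24.7% and 20.5% on Am80. The paracaspase MALT1 rose by 1.30 and 1.16 and its partner BCL10 by 0.86 and 0.75, and TRAF3, which targets MAP3K14 for degradation, rose by 0.54 and 0.78. CARD9, another partner of BCL10, gave -0.83 and -0.48, the second no longer called with the GC trend removed (adjusted p = 0.0568, limma). In normalized counts, MALT1 went from 332 ± 2.78 to 821 ± 38.5 on ATRA.

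Other nuclear IκB proteins and brakes on NF-κB formed a list of 20 genes, of which 19 were tested and TNIP3 fell under the filter. BCL3, a nuclear IκB protein that binds dimers of the processed subunits, rose from 88.5 ± 14.3 normalized counts in untreated cells to 348 ± 5.62 with ATRA and 363 ± 54.9 with Am80 (log2 1.98 and 2.03), and it was lower at 177 ± 25.6 and 194 ± 15.2 once the inhibitors were added (log2 -0.98 and -0.89). The nuclear IκB gene NFKBID moved with the inhibitors instead, by 0.74 on ATRA and 1.14 on Am80. BCL3 thus had its highest level with a retinoid alone, as TNFAIP3 did, and NFKBID in the combinations, as NFKBIZ did. NKIRAS2, which binds IκB proteins, rose by 1.11 and 1.18 with the retinoids and the deubiquitinase gene OTUD7B by 0.95 and 0.89, while PDLIM2, a nuclear ubiquitin ligase for RELA, gave -0.40 and -0.52. On adding the inhibitors, NKIRAS1 rose by 0.87 and 0.48 and the linear-chain deubiquitinase OTULIN by 0.64 and 0.65, and NFKBIL1 (-0.68 and -0.75) and TNFAIP8L2 (-0.41 and -0.54) fell. Scaling to total reads ended the call of NKIRAS1 on Am80 (adjusted p = 0.0601, limma), and removal of the GC trend those of NFKBIL1 and TNFAIP8L2 on ATRA (adjusted p = 0.302 and 0.0730, limma). In the whole list 5 genes were higher and 1 lower with ATRA, and 7 higher and 1 lower with Am80. The shares of all genes were 12.5% and 12.1% with ATRA and 15.4% and 13.4% with Am80. When the inhibitors were added, 10 were higher and 6 lower on ATRA and 9 higher and 3 lower on Am80. Beside these stood 24.9% and 24.4% of all genes on ATRA and 19.9% and 19.5% on Am80. Scaling to total reads gave 8 higher and 8 lower on ATRA and 6 higher and 6 lower on Am80 (median -0.02). Over all genes that scaling called 15.2% higher and 35.8% lower on ATRA and 12.5% and 30.3% on Am80. Removal of the GC trend gave 9 higher and 2 lower on ATRA, where 23.3% and 19.1% of all genes were higher and lower. In the ATRA combination against untreated cells all 19 were called, 13 higher and 6 lower, beside 30.2% and 30.0% of all genes. That count was 11 higher and 6 lower under scaling to total reads and 12 higher and 4 lower with the GC trend removed. The shares of all genes were 21.6% higher and 40% lower under that scaling and 25.8% and 31.6% without the trend.

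Known target genes of NF-κB were described by a list of 40, of which 26 were tested. The other 14 included IL6 and SELE, which had no read in any library. The inhibitors added to ATRA called 14 higher and 2 lower and added to Am80 16 higher and 3 lower, with median log2 fold changes of 0.36 and 0.44, where 24.9% and 24.4% of all genes were higher and lower on ATRA and 19.9% and 19.5% on Am80. Under scaling to total reads the counts were 11 higher and 3 lower on ATRA and 14 higher and 3 lower on Am80. Over all genes that scaling called 15.2% higher and 35.8% lower on ATRA and 12.5% and 30.3% on Am80. CXCL8, a chemokine that attracts neutrophils, rose from 2088 ± 330.2 to 13641 ± 3222 normalized counts on ATRA and from 2822 ± 324 to 16068 ± 2745 on Am80 (log2 2.69 and 2.50). IL1B rose by 2.11 and 2.22 and TNF by 1.76 and 1.94, both cytokines of activated monocytes, whereas GADD45B gave -0.55 and -0.34. With the GC trend removed, 25 of the 26 genes had a GC value. The counts were then 16 higher and 2 lower on ATRA and 18 higher and 3 lower on Am80. The shares of all genes were 23.3% and 19.1% on ATRA and 24.7% and 20.5% on Am80.

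The retinoids alone called 10 targets higher and 5 lower with ATRA and 10 higher and 4 lower with Am80 (medians 0.09 and 0.16), compared with 12.5% of all genes higher and 12.1% lower with ATRA and 15.4% and 13.4% with Am80. With Am80, removal of the GC trend gave 10 higher and 7 lower of 25, and scaling to total reads 10 higher and 5 lower. The shares of all genes were 13% and 20.5% without the GC trend and 12% and 18.7% under that scaling. The adhesion molecule ICAM1 rose from 56.5 ± 3.32 normalized counts to 264 ± 18.4 and 277 ± 6.92, and the interferon-regulated factor IRF1 from 469 ± 24.5 to 2156 ± 4.79 and 2081 ± 159. Both are also known to respond to signals other than NF-κB. The chemokine CXCL1 fell by 1.28 and 1.24 on the log2 scale, and the receptors TLR2 (-0.84 and -0.86) and NOD2 (-0.61 and -0.55) were lower as well. IRF1 was lower by -0.54 and -0.41 when the inhibitors were added. IER3 was called higher with both retinoids, but untreated cells had 1.97 ± 2.28 normalized counts, too few for a fold, against 11.2 ± 3.09 with ATRA and 14.5 ± 4.47 with Am80.

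For the 3 genes with the widest spread of group means, the genes with the most similar pattern over the 16 libraries were sought among the 11291 genes whose mean was 50 normalized counts or more. They were SSH2 (Pearson r = 0.990), PIK3C2A (0.988) and NCBP3 (0.984) for REL, SLC15A2 (0.991), TARDBP (0.987) and MTF1 (0.980) for NFKBIZ, and CCDC9 (0.973), AKT1S1 (0.948) and SIRT6 (0.945) for NFKBIB. These values describe likeness over libraries that share 5 conditions, and the highest values were picked from many genes.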

How the data were processed

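The deposited signal values were normalized counts: the authors processed the reads on Galaxy (FastQC, cutadapt, STAR, featureCounts and DESeq2 are named in the submitters' processing notes, with no version) and divided the reads of each library by a DESeq2 size factor. The genome build, annotation release and strand setting are not given in the sources used here. The labels name other RNA and library kits than the study's methods. Whole reads were recovered for 100% of values (tolerance 0.01), and replicate pairs differed beyond counting noise (chi-square per degree of freedom 2.55 to 22.7 in 18 pairs). Gene coordinates, exon lengths and GC content came from GENCODE on GRCh38, and promoters from RefSeq on GRCh38.p14.

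Libraries were grouped by their labels. Log2(normalized count + 1) was taken for the 14643 genes whose mean reached 10 and fitted with limma 3.58.1 (R 4.3.3; 1 coefficient per group, all 16 libraries, variance trend), with Benjamini-Hochberg adjustment within each of 9 comparisons. Fold changes are on that scale. Promoter matches and figures used Python 3.11.15 with numpy 2.4.6, pandas 2.3.3 and matplotlib 3.10.9. Alternatives were no filter or a mean of 50, pseudocounts of 0.5 and 5, quantile and total-read scaling, only the groups compared, edgeR 4.0.16 and DESeq2 1.42.0 on the recovered reads, a replicate block, a 1.5-fold limit, an adjusted p-value under 0.01 and each library left out. Removal of a GC spline and leaving out 2 libraries together were chosen after seeing the data. On simulated data for the inhibitors added to ATRA (14643 genes), limma called 59% of 1.5-fold and 79% of 2-fold changes, with 6 other genes. Far fewer genes were changed there than were called in the data, and they were drawn from all tested genes at any level. These rates therefore do not describe detection for the 10 genes. The named genes are the 10 genes, up to 3 risers and 3 fallers per pathway list called alike with both retinoids, and the 3 closest patterns to the 3 genes of widest range. The 10 genes and the 4 pathway lists were chosen with earlier results of these data known. Some genes of the marker and pathway lists are not reported here.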

Additional observations from a re-analysis of the deposited data

How the results depend on the processing

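Of the 34 called changes, 22 kept their call and direction under all 28 alternatives with the same threshold, 15 were at least 1.5-fold and 26 had an adjusted p-value (limma) under 0.01. The number of the 10 genes called moved by more than 1.5 times under these settings. Scaling to total reads called 5 with Am80 against untreated cells, compared with 30.6% of all genes. A fit of only the groups compared called 4 between the combinations, compared with 13.5% of all genes. A 1.5-fold limit called 1 with ATRA, 1 with Am80, 2 in the ATRA combination and 3 in the Am80 combination against untreated cells. It called 2 when the inhibitors were added to ATRA. An adjusted p-value (limma) under 0.01 called 2 with ATRA and 1 with Am80. Both limits can only lower a count, and the shares of all genes under them are not given here. Removing the GC trend called 8 when the inhibitors were added to ATRA, compared with 42.4% of all genes. Leaving out 1 library called as few as 2 with ATRA (without ATRA replicate 3), a fit whose share of all genes is not given here. Leaving out untreated replicate 4 and Am80 replicate 2 together called 4 between the combinations, compared with 15.7% of all genes. The fit without both called 6 with ATRA, compared with 29.4% of all genes, within 1.5 times of the 5 from all libraries.

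A pairing of the libraries by replicate number was not detected: of 30 same-number pairs, 4 had deviations correlated above 0.1 (range -0.112 to 0.187), and 5 of 16 libraries correlated best with their own number. With deviations taken from means of 3 or 4 libraries, this check cannot exclude that libraries of the same number were handled together. With a replicate block, in which untreated replicate 4 has no partner, 3 genes were called with ATRA and 1 between the combinations. The calls of NFKB2 and NFKBIE with ATRA and of NFKBIA with Am80 were lost. The share of all genes called with the block is not given here.

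Some values that were not called changed sign. Under quantile normalization RELA in the ATRA combination against untreated cells gave -0.0031 and TNFAIP3 in Am80 against ATRA -0.0083. Under scaling to total reads, NFKB2 gave -0.042 and RELA -0.029 in the ATRA combination, RELA -0.0057 when the inhibitors were added to ATRA, NFKBIA -0.033 when they were added to Am80, and TNFAIP3 -0.050 in Am80 against ATRA. By edgeR NFKB1 in Am80 against ATRA was 0.0011. With the replicate block RELB was 0.096 with ATRA and 0.066 with Am80, and NFKBIE was 0.036 in the Am80 combination. With the GC trend removed RELB was 0.042 with Am80, NFKBIE 0.10 in the Am80 combination, and NFKB1 0.029, NFKBIA 0.14 and NFKBIE 0.34 when the inhibitors were added to ATRA. NFKB1 was then 0.011 and RELB 0.070 in Am80 against ATRA, and NFKB2 -0.069 and NFKBIE -0.054 in the interaction. Leaving out libraries gave ranges across 0 with ATRA for RELA (-0.045 to 0.011) and RELB (-0.084 to 0.096), with Am80 for RELB (-0.20 to 0.27) and NFKBIB (-0.33 to 0.0042), and in the Am80 combination for NFKBIE (-0.14 to 0.045). On adding the inhibitors to ATRA the ranges were -0.045 to 0.0045 for NFKB1 and -0.051 to 0.053 for NFKBIA. In Am80 against ATRA they were -0.025 to 0.024 for NFKB1, -0.0070 to 0.20 for NFKB2, -0.18 to 0.18 for RELB, -0.20 to 0.058 for NFKBIB and -0.046 to 0.069 for TNFAIP3, in the combinations -0.062 to 0.20 for NFKBIZ, and in the interaction -0.042 to 0.14 for REL. The causes were not tested. Each of the 10 genes had at least 141 reads in every library.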
